A study of Mus musculus with 6 samples.

Results

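The hair follicle genes examined here are 9 genes of hair follicle formation, *Shh*, *Edar*, *Edaradd*, *Lhx2*, *Foxn1*, *Dlx3*, *Msx2*, *Lef1* and *Trps1*, chosen by name from the 56262 genes of the count table. They were measured by RNA-seq of fetal mouse leg muscle at embryonic day 18.5 (E18.5), in 3 wild type (WT) and 3 *SYISL* knockout (KO) samples. *SYISL* is a long noncoding RNA that restrains muscle growth, and the comparison asks what its loss changes in the embryonic leg muscle. The WT samples carried no other allele or agent named in the labels, and the KO samples lacked *SYISL*. Parents of each litter shared 1 genotype, and the WT mice were supplied by an animal center while the KO line came from earlier work of the authors, so genotype, dam, litter and mouse source cannot be told apart. *SYISL* has no symbol in the annotation used, and its loss was not checked here. All 9 genes passed the filter on low counts and are among the 22071 genes tested.

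Hair follicles start as placodes, local thickenings of the fetal epidermis that form over condensed dermal cells. WNT signals, read out by the DNA-binding protein LEF1, and the ectodysplasin receptor EDAR with its adaptor EDARADD set up the placode, and Sonic hedgehog (SHH) then drives its growth into the dermis. Transcription factors such as LHX2, MSX2, DLX3, FOXN1 and TRPS1 act in the placode, the hair matrix or the differentiating hair. The mature hair is wrapped by an inner root sheath and an outer root sheath, each with keratins of its own. Several of the 9 genes are also used outside the skin, *Lef1* in mesenchyme and T cells, *Shh* in the limb, and *Dlx3*, *Msx2*, *Lhx2* and *Trps1* in the limb or skeleton.

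The samples held 82054811 to 102233181 counts each, and a count of 0 allowed up to 3 counts, or 0.0293 to 0.0366 CPM (counts per 1000000 counts) of the unscaled totals. This limit covers counting error only. The tissue carried the muscle label, and its muscle genes were abundant, with *Myh8*, a fetal myosin heavy chain, at 4166 to 5153 CPM in WT and 12485 to 15082 CPM in KO. *Acta1*, a muscle actin gene, was at 4280 to 4635 CPM in WT and 10524 to 13505 CPM in KO. In 8 of 10 muscle markers every KO sample lay above every WT sample, where 27.3% of all genes tested did so. In 1 marker every KO sample lay under every WT sample, where 28.5% of all genes tested did so. Keratinocyte genes were present in every sample too. The summed level of 10 basal keratinocyte markers was 2341 to 2854 CPM in WT and 419 to 506 CPM in KO, and that of 10 suprabasal markers was 16861 to 25292 CPM in WT and 645 to 854 CPM in KO. Nothing in the labels says that the 3 samples of a genotype came from separate litters, so p-values measure the spread between these samples.

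The 9 genes did not move together. *Edar*, *Edaradd*, *Foxn1*, *Dlx3* and *Lef1* fell in KO, by 1.86-fold to 7.30-fold. *Shh* overlapped between the genotypes, and *Lhx2*, *Msx2* and *Trps1* were 1.19-fold to 1.32-fold higher in KO, too little to be called. A gene was called when its adjusted p in edgeR's quasi-likelihood test was under 0.05 and its fold change was over 1.5. By this rule 5 of 9 genes were called lower, where 8.39% of all genes tested were, and 0 were called higher, where 8.31% of all genes tested were. DESeq2 and limma-voom also called 0 of the 9 higher. At an unadjusted p under 0.05, 3 were higher in edgeR, in DESeq2 and in limma-voom. In edgeR 3 were higher at an adjusted p under 0.05 too, and these missed the call on fold change alone. The median log2 fold change was -0.90 over the 9 genes and -0.0041 over all genes tested. In 5 genes every KO sample lay under every WT sample, as in 28.5% of all genes tested, and in 3 genes every KO sample lay above, as in 27.3% of all genes tested. In these bulk samples, fewer cells of a type and less RNA per cell cannot be told apart.

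**Figure D1:**
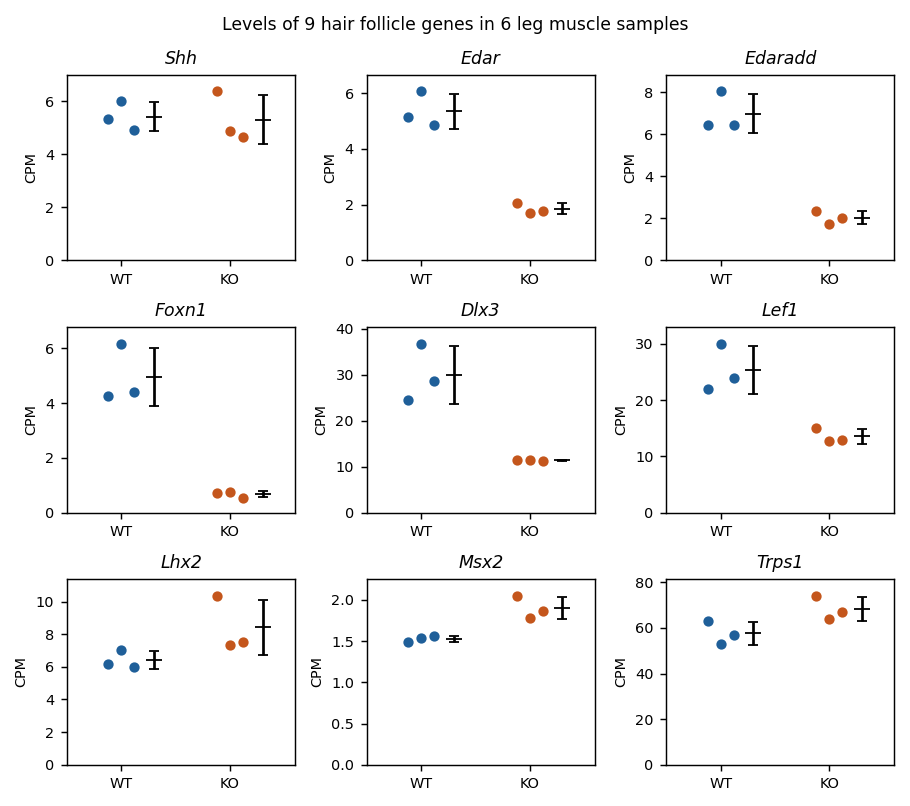
Level of each of the 9 genes in CPM (vertical axis from 0, 1 panel per gene), with 1 point per sample for the 3 WT samples (blue) and the 3 KO samples (orange); the black mark beside each group is the mean ± SD (n = 3). The groups are apart and lower in KO for Edar, Edaradd, Foxn1, Dlx3 and Lef1, overlap for Shh, and are apart and higher in KO for Lhx2, Msx2 and Trps1.

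*Edar* encodes the receptor for ectodysplasin A1 (chr10:58600789-58675654, minus strand, mm10, protein coding). Its level was 5.13, 6.06 and 4.86 CPM in the WT samples and 2.07, 1.70 and 1.77 CPM in the KO samples. Each KO sample was under each WT sample. The means of 5.35 ± 0.630 CPM for WT and 1.85 ± 0.197 CPM for KO (SD, n = 3) gave a log2 fold change of -1.53 (SE 0.115) with an adjusted p of 5.58e-06 in edgeR. *Edaradd* encodes the adaptor that carries the EDAR signal to NF-kappaB (chr13:12472632-12520438, minus strand). It stood at 6.42, 8.04 and 6.46 CPM in WT and at 2.36, 1.71 and 2.03 CPM in KO. The receptor and its adaptor thus both fell, *Edaradd* 3.43-fold and *Edar* 2.89-fold. For *Edaradd* the means were 6.97 ± 0.920 CPM and 2.03 ± 0.324 CPM (SD, n = 3), with a log2 fold change of -1.78 (SE 0.133) and an adjusted p of 5.51e-06 in edgeR.

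Other genes of the ectodysplasin pathway did not follow the receptor and its adaptor as a group. Of 6 listed genes, 2 were called lower, where 8.39% of all genes tested were, and 4 were not called, with a median log2 fold change of 0.062. The ligand gene *Eda* was at 27.5 to 28.7 CPM in WT and at 29.9 to 33.2 CPM in KO, above WT but by under 1.5-fold. *Traf6*, which encodes an adaptor downstream of EDARADD and of many immune receptors, fell from 49.0 to 29.0 CPM (log2 fold change -0.76, SE 0.065, edgeR adjusted p 1.45e-05). *Tnfrsf19*, a relative of *Edar*, fell from 72.3 to 47.7 CPM (log2 fold change -0.60). *Nfkbia*, a target of NF-kappaB, was at 35.7 to 39.8 CPM in WT and 35.6 to 45.8 CPM in KO, which overlap.

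*Foxn1* fell most of the 9 genes. It encodes a forkhead transcription factor of the hair shaft and of differentiating epidermis, the gene lost in nude mice (chr11:78357577-78386558, minus strand). Its level was 4.27, 6.17 and 4.39 CPM in WT and 0.725, 0.766 and 0.535 CPM in KO, based on 404 to 510 counts per WT sample and 52 to 73 counts per KO sample. Every KO sample was far under the lowest WT sample. The means were 4.94 ± 1.07 CPM and 0.675 ± 0.124 CPM (SD, n = 3), with a log2 fold change of -2.87 (SE 0.186) and an edgeR adjusted p of 2.18e-06.

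*Dlx3* encodes a homeodomain factor of differentiating epidermis, hair matrix and bone (chr11:95120119-95125296, plus strand). It was at 24.4, 36.8 and 28.5 CPM in WT and at 11.5, 11.4 and 11.2 CPM in KO. The WT samples were spread and the KO samples close to each other, and the groups did not overlap. The means were 29.9 ± 6.30 CPM and 11.4 ± 0.158 CPM (SD, n = 3), a log2 fold change of -1.39 (SE 0.127) with an edgeR adjusted p of 2.10e-05. *Dlx3* is also a bone gene, and of 8 osteoblast markers 1 was called lower and 1 higher, with a summed level of 1685 to 1741 CPM in WT and 1375 to 1616 CPM in KO. Its most abundant marker, *Ibsp*, was at 791 to 829 CPM in WT and 772 to 834 CPM in KO, which overlap, and the next, *Spp1*, at 649 to 687 CPM in WT and 431 to 597 CPM in KO, which do not. *Dmp1* was the marker called lower, at 52.5 to 56.5 CPM in WT and 30.1 to 37.1 CPM in KO. *Bglap* was the marker called higher, at 2.18 to 2.58 CPM in WT and 3.18 to 4.28 CPM in KO. In 5 of the 8 markers every KO sample lay under every WT sample, and in 2 every KO sample lay above. Of all genes tested, 28.5% lay under and 27.3% above in this way, and 8.39% were called lower and 8.31% higher. The part of bone cells in the *Dlx3* difference was not tested.

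*Lef1* encodes the factor that carries the WNT signal to DNA (chr3:131110471-131224356, plus strand). Its level was 21.9, 30.04 and 24.0 CPM in WT and 15.1, 12.7 and 13.0 CPM in KO. The lowest WT sample was above the highest KO sample. The means were 25.3 ± 4.22 CPM and 13.6 ± 1.32 CPM (SD, n = 3), with a log2 fold change of -0.90 (SE 0.115) and an edgeR adjusted p of 1.98e-04. Of the genes that fell, *Lef1* changed least, by 1.86-fold. T cells also express *Lef1*, and of their markers *Cd3d* was at 0.032 to 0.097 CPM and *Cd8a* at 0 to 0.052 CPM, while *Cd3e* was at 2.92 to 3.24 CPM in WT and 6.47 to 7.64 CPM in KO. The 7 T cell markers summed to 31.8 to 34.5 CPM in WT and 32.6 to 35.4 CPM in KO, most of it *Tcf7*. Of the 5 tested, 1 was called lower and 1 higher, where 8.39% and 8.31% of all genes tested were. The part of T cells in the *Lef1* difference was not tested. An unstranded count could include reads of *Gm43352*, which shares 1208 exon bases with *Lef1* on the other strand and had at most 43 counts of its own in any sample.

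*Shh* encodes the secreted signal made by the placode and later by the hair matrix (chr5:28456815-28467256, minus strand). Its level was 5.32, 6.03 and 4.93 CPM in WT and 6.38, 4.90 and 4.68 CPM in KO. The highest sample and the 2 lowest samples were all KO, so the groups overlapped. The means were 5.43 ± 0.557 CPM and 5.32 ± 0.925 CPM (SD, n = 3), a log2 fold change of -0.03 (SE 0.126) with an edgeR adjusted p of 0.883. *9530036O11Rik*, which shares 446 exon bases with *Shh* on the other strand, had 2 to 8 counts per sample. The sign of the *Shh* difference turned positive with upper-quartile scaling and without WT replicate 2, KO replicate 2 or KO replicate 3. Of 11 listed genes that receive or limit the hedgehog signal, 1 was called higher, where 8.31% of all genes tested were. The other 10 were not called, and the median log2 fold change of the list was -0.011. In edgeR with no fold threshold, the signal's target genes *Ptch1* and *Gli1* had adjusted p-values of 0.00193 and 0.0337. *Ptch1*, the receptor, was at 63.1 to 66.4 CPM in WT and 73.7 to 85.2 CPM in KO. *Gli1* was at 78.6 to 86.6 CPM in WT and 88.8 to 103 CPM in KO, so in both genes the KO samples lay above the WT samples by less than 1.5-fold. *Hhip*, which encodes a protein that binds and holds back hedgehog ligands, rose from 15.8 to 25.4 CPM (log2 fold change 0.69, SE 0.064, edgeR adjusted p 2.41e-05).

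*Lhx2* encodes a LIM homeodomain factor of the placode and of hair follicle stem cells (chr2:38339281-38369733, plus strand). It was at 6.201, 7.02 and 5.997 CPM in WT and at 10.3, 7.36 and 7.55 CPM in KO. The KO samples lay above the WT samples, with KO replicate 1 apart from the other two. The log2 fold change was 0.40 (SE 0.130) with an edgeR adjusted p of 0.0337, under the 1.5-fold needed for a call. Without KO replicate 1 the log2 fold change was 0.23, and the adjusted p was under 0.05 in 10 of 14 alternative analyses.

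*Msx2*, which encodes a homeodomain repressor needed for hair upkeep and for skull and limb growth (chr13:53466884-53473074, minus strand), was the lowest of the 9 genes in CPM in WT. It was at 1.49, 1.54 and 1.56 CPM in WT and at 2.05, 1.78 and 1.86 CPM in KO. The groups were apart by little. The log2 fold change was 0.31 (SE 0.104, edgeR adjusted p 0.0360), and the adjusted p was under 0.05 in 5 of 14 alternatives and reached 0.116 with DESeq2. *Trps1* encodes a GATA-type zinc finger repressor of hair, cartilage and bone (chr15:50654752-50890463, minus strand). It had the most counts of the 9, at 63.1, 52.8 and 56.8 CPM in WT and 74.1, 64.0 and 67.0 CPM in KO. The highest WT sample, WT replicate 1, came close to the lowest KO sample, KO replicate 2. The log2 fold change was 0.25 (SE 0.072, edgeR adjusted p 0.0199), with an adjusted p under 0.05 in 10 of 14 alternatives. Cells of cartilage also express *Trps1*, and of 8 cartilage markers 4 were called lower and 1 higher (summed level 630 to 766 CPM in WT, 604 to 611 CPM in KO). *Col2a1*, the main collagen gene of cartilage, was at 230 to 303 CPM in WT and about 141 CPM in each KO sample, while *Col11a2*, also a cartilage collagen gene, was at 249 to 274 CPM in WT and 257 to 265 CPM in KO. *Comp* was the marker called higher, at 9.02 to 12.7 CPM in WT and 19.0 to 20.2 CPM in KO. *Acan* was at 92.2 to 110 CPM in WT and 135 to 141 CPM in KO and was not called. In 4 of the 8 markers every KO sample lay under every WT sample, and in 2 every KO sample lay above. The shares of all genes tested were 8.39% called lower, 8.31% called higher, 28.5% under and 27.3% above. The 8 markers of connective tissue fibroblasts had log2 fold changes of 0.06 to 0.35, with a median of 0.206, too small to be called. In 7 of the 8 every KO sample lay above every WT sample, where 27.3% of all genes tested did so. The most abundant, *Col1a1* and *Col1a2*, had means of 18324 and 12153 CPM in WT and of 20477 and 14173 CPM in KO. The part of these cells in the differences of *Lhx2*, *Msx2* and *Trps1* was not tested.

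**Figure D2:**
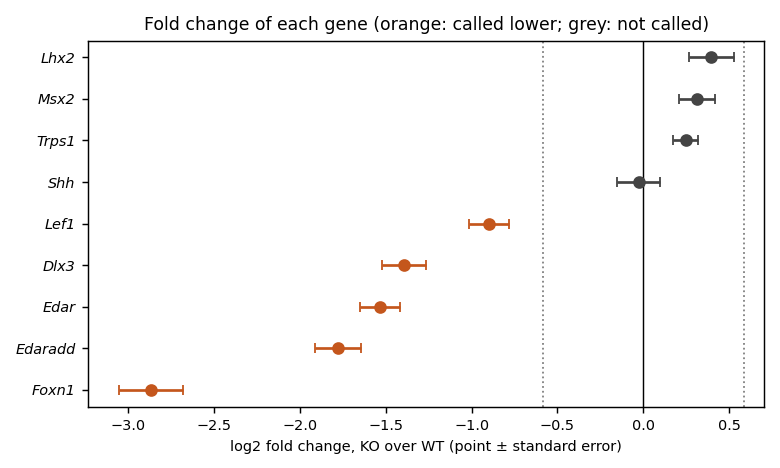
Log2 fold change of each of the 9 genes, KO over WT (horizontal axis; point ± standard error from edgeR, 3 samples per genotype), with dotted lines at a fold change of 1.5. Foxn1, Edaradd, Edar, Dlx3 and Lef1 (orange) lie left of the dotted line, from -2.87 to -0.90, and the other genes (grey) lie between the lines.

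The order of the genes by level per transcript length changed with genotype. Levels per length are given as RPKM, the CPM divided by the exon length in kilobases. In WT the order was *Dlx3* (11.5 RPKM), *Trps1* (4.30), *Lef1* (2.88), *Shh* (1.91), *Foxn1* (1.54), *Edar* (1.47), *Lhx2* (1.46), *Edaradd* (1.05) and *Msx2* (0.467). The sample ranges of *Shh* and *Foxn1*, of *Foxn1* and *Edar*, and of *Edar* and *Lhx2* overlapped, so these neighbours were not apart. In KO the order was *Trps1* (5.11 RPKM), *Dlx3* (4.37), *Lhx2* (1.92), *Shh* (1.87), *Lef1* (1.54), *Msx2* (0.579), *Edar* (0.508), *Edaradd* (0.305) and *Foxn1* (0.210). There *Lhx2* and *Shh*, *Shh* and *Lef1*, and *Msx2* and *Edar* overlapped. *Foxn1* thus went from the fifth place to the last, and *Dlx3* gave the first place to *Trps1*.

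Most of the genes shared their highest KO sample, and most shared their highest WT sample, but they did not share 1 order of the WT samples. In KO, 8 of the 9 genes were highest in KO replicate 1, all but *Foxn1*, whereas 38.9% of all genes tested were highest in that sample. KO replicate 1 also had the highest summed level of basal markers among the KO samples and the lowest of suprabasal markers. In WT, *Edaradd*, *Foxn1*, *Dlx3* and *Lef1* peaked at WT replicate 2 and had their minimum at WT replicate 1, as did 9 of 10 basal markers, 8 of 10 suprabasal markers and 25.5% of all genes tested. *Trps1* had the opposite extremes, with its peak at WT replicate 1 and its minimum at WT replicate 2. *Shh*, *Edar* and *Lhx2* also peaked at WT replicate 2, with their minimum at WT replicate 3. *Msx2* peaked at WT replicate 3 and had its minimum at WT replicate 1. The share of all genes with their peak at WT replicate 2 was not counted. The part of these markers' cells in the order was not tested. All 5 calls held when any 1 sample was left out.

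Markers of keratinocytes fell in the same samples. Of the 10 basal markers 9 were called lower and 1 was not called, with a median log2 fold change of -2.05. All 10 suprabasal markers were called lower, with a median of -4.29. The share of all genes tested that was called lower was 8.39%. *Krt5*, the keratin of the basal layer, fell from 1001 to 257 CPM and *Perp*, which encodes a desmosome protein, from 592 to 28.1 CPM. *Krt1* and *Krt10*, the keratins of the layers above, fell from 9575 to 215 CPM and from 5837 to 79.3 CPM. *Edar*, *Edaradd*, *Dlx3* and *Lef1*, with log2 fold changes of -1.78 to -0.90, thus lay above the median basal marker. *Foxn1*, at -2.87, lay between the medians of both layers. The 10 basal markers ran from -4.75 to -0.54, so each of these genes lay within the spread of the basal markers.

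Each gene was also set against the summed level of the 10 basal markers in the same sample, a ratio that no scaling of the libraries alters. The basal sum was 5.57-fold lower in KO, so the ratio is higher in KO for any gene that fell less, as in 96.4% of all genes tested, where every KO sample lay above every WT sample. In 1.77% of all genes tested every KO sample lay under every WT sample. Per 10000 counts of basal markers, *Lhx2* stood at 26.5, 24.6 and 24.9 in WT and at 205, 168 and 180 in KO. *Shh* stood at 22.7, 21.1 and 20.4 in WT and at 126, 112 and 111 in KO. *Msx2* and *Trps1* had ratios that were 6.90-fold and 6.62-fold higher in KO, against 7.25-fold for *Lhx2* and 5.43-fold for *Shh*. For these 4 genes the ratio restates a nearly even CPM over the lower basal sum.

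The genes that fell split in this ratio. *Edar* went from 21.9, 21.2 and 20.2 per 10000 basal counts in WT to 40.9, 38.7 and 42.1 in KO. *Edaradd* went from 27.4, 28.2 and 26.8 to 46.6, 39.0 and 48.3. *Dlx3* and *Lef1* had ratios 2.15-fold and 3.01-fold higher in KO. *Foxn1* alone of the 9 had a lower ratio, at 18.2, 21.6 and 18.2 in WT and 14.4, 17.5 and 12.7 in KO, a log2 difference of -0.39. With 8 ratios higher and 1 lower in KO, none overlapped between the genotypes, and the 8 of 9 are near the share of all genes given above. The exact two-sided permutation test gave p = 0.1 for each gene, the smallest that 3 against 3 samples allow, and 0.1 after adjustment over the 9 genes. With suprabasal markers in place of basal ones all 9 ratios were higher in KO, where 99% of all genes tested were higher and 0.272% lower. With the mean of log2 CPM over the basal markers 8 were higher and 1 lower, where 96.3% of all genes tested were higher and 1.93% lower, and with *Krt5* alone 7 were higher, 1 was lower and 1 overlapped, where 95.1% of all genes tested were higher and 2.4% lower.

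**Figure D3:**
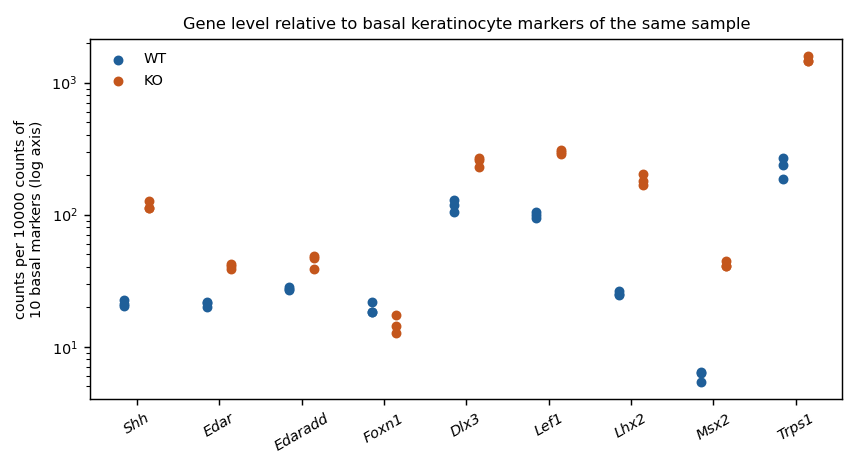
Level of each of the 9 genes per 10000 counts of 10 basal keratinocyte markers in the same sample (vertical log axis), with 1 point per sample for WT (blue) and KO (orange), 3 samples each. The KO points lie above the WT points for 8 genes, most for Lhx2, Msx2 and Trps1, and below them for Foxn1.

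The other follicle genes were described by 7 lists of 86 genes, of which 85 were found and 79 tested. Of the 79 tested, 18 were called lower and 9 higher, and their median log2 fold change was 0.0072. Of all genes tested, 8.39% were called lower and 8.31% higher, so lower calls were more frequent in the lists. The higher calls were near the share of all genes. With at least 10 counts required in every sample, 4 genes of the lists were called higher. The same shares of all genes apply to the counts of each single list given here. By list the median ran from -0.23, in the outer root sheath and stem cell list, to 0.23, in the list of hair matrix, shaft and inner root sheath.

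Most genes of the WNT list and of the BMP and FGF list were not called. In the WNT list of 10 genes, 3 were called lower and 7 were not called. *Dkk4*, which encodes a secreted WNT inhibitor made by the placode, fell from 1.90 ± 0.373 to 0.265 ± 0.0679 CPM (SD, n = 3; log2 fold change -2.83, SE 0.224, edgeR adjusted p 8.00e-06). *Wnt3* fell from 8.99 to 1.79 CPM and *Wnt10a* from 3.10 to 1.12 CPM, both WNT ligands of the follicle epithelium, with log2 fold changes of -2.32 and -1.46. *Wnt10b*, another ligand, was at 16.6 to 18.4 CPM in WT and 11.7 to 12.2 CPM in KO, apart but by under 1.5-fold. *Axin2*, a general target gene of WNT signalling, was at 37.4 to 46.2 CPM in WT and 41.2 to 42.6 CPM in KO, which overlap. In the list of BMP and FGF signals, 2 of 12 genes were called lower and 10 were not called. *Fgf20*, a placode signal to the dermal condensate, fell from 1.11 to 0.375 CPM (log2 fold change -1.56, SE 0.236), and *Bmp2* from 24.5 to 11.3 CPM (log2 fold change -1.12, SE 0.057). *Sostdc1*, which encodes a BMP and WNT inhibitor, was at 24.9 to 27.1 CPM in WT and 23.5 to 24.4 CPM in KO and was not called.

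Most dermal genes of the follicle were not called. Of 12 genes of the dermal condensate and papilla 2 were called lower and 1 higher, with a median log2 fold change of 0.133. *Sox2*, which marks the condensate, was at 1.51 to 1.73 CPM in WT and 1.47 to 1.63 CPM in KO, with an edgeR adjusted p of 0.805. *Prdm1*, which is also a gene of epidermal differentiation, fell from 31.8 to 11.9 CPM and *Crabp1*, which encodes a retinoic acid binding protein, from 123 to 65.3 CPM. *Ndp*, which encodes norrin, a ligand of a WNT receptor, rose from 0.622 to 1.03 CPM. In the list of outer root sheath and stem cells, 4 of 10 were called lower and 1 higher. *Krt15* and *Cdh3*, which basal epidermis expresses too, fell from 177 to 16.2 CPM and from 35.5 to 15.1 CPM. *Krt17* fell from 69.3 to 34.9 CPM and *Krt79*, a keratin of the upper follicle, from 7.12 to 4.19 CPM.

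Of 7 listed keratins of the inner root sheath, 5 rose and 2 were too low to be tested. In the list of hair matrix, shaft and inner root sheath, 5 of 18 tested genes were called lower and 6 higher, and the 6 that rose are all keratins. The raw counts of *Krt25* were 3, 2 and 5 for WT against 158, 99 and 115 for KO. For *Krt73* they were 7, 11 and 9 against 183, 149 and 143, and for *Krt28* 23, 12 and 27 against 317, 220 and 198. All KO samples were thus far above all WT samples, at low levels of 1.30, 1.66 and 2.58 CPM in KO. The ratio of summed counts, KO over WT per scaled library size, was 36.8 for *Krt25* (95% exact Clopper-Pearson interval 19.8 to 77.3, counting error only), 17.4 for *Krt73* (11.8 to 26.7) and 11.7 for *Krt28* (9.03 to 15.4). The edgeR adjusted p was 1.93e-06, 8.78e-07 and 4.74e-06, and the fitted log2 fold changes of 5.15, 4.10 and 3.55 depend on the prior count at such low WT counts.

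The other 3 that rose, *Krt27* and *Krt71* of the inner root sheath and *Krt35* of the hair shaft, and *Krt75* of the companion layer between the sheaths, are named after their values were seen. Their summed counts per scaled library were 18.3-fold (8.66 to 46.5), 9.43-fold (6.18 to 15.02), 8.33-fold (5.61 to 12.8) and 3.39-fold (2.49 to 4.70) higher in KO, with the same kind of interval. The 5 inner root sheath keratins together held 0.375 to 0.531 CPM in WT and 5.91 to 8.36 CPM in KO, the most in KO replicate 1. Among the KO samples, that sample was also highest for 8 of the 9 hair follicle genes and for 38.9% of all genes tested. *Krt26* and *Krt72*, also of the inner root sheath, were too low to be tested, with 5 and 9 counts over the WT samples and 27 and 1 over the KO samples. Other genes of the list went down with the 5 genes that fell. *Krt33b* and *Krt34* of the hair shaft had 96 and 60 counts over the WT samples and 40 and 10 over the KO samples. *Krt31* and *Krt83*, also of the hair shaft, were among 7 genes of the list not called, with log2 fold changes of -0.09 and 0.30. *Tchh*, which encodes trichohyalin of the inner root sheath, fell from 5.47 to 3.36 CPM, and *Gata3*, which acts in the inner root sheath and the epidermis, from 23.9 to 7.84 CPM. Keratins of a type resemble each other in sequence, so the counting may have split reads between them. *Ovol1*, a regulator of epidermal and hair differentiation in the same list, fell from 28.8 to 2.05 CPM (log2 fold change -3.81, SE 0.178).

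**Figure D4:**
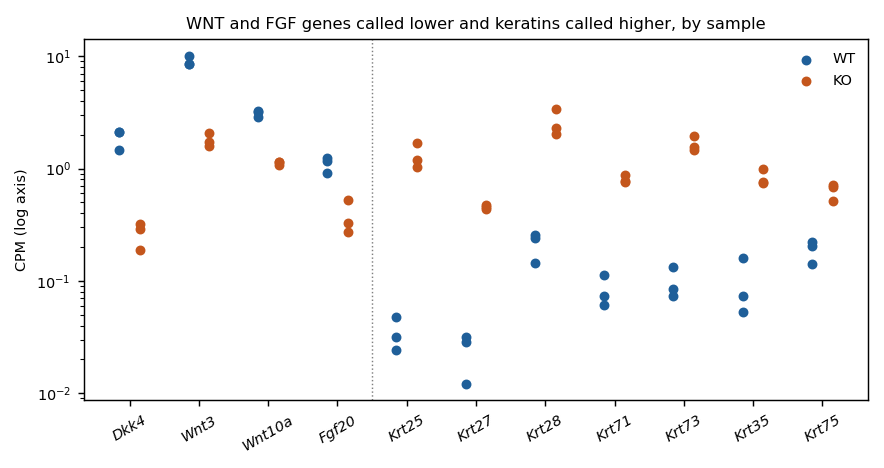
Level in CPM (vertical log axis) of 4 WNT and FGF genes chosen because they were called lower (left of the dotted line) and of 7 keratins of the inner root sheath, hair shaft and companion layer chosen because they were called higher (right), with 1 point per sample for WT (blue) and KO (orange), 3 samples each. The KO points lie below the WT points for the 4 genes on the left and above them for the 7 keratins.

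Stretches of 250 bases before the transcript start are shown for genes that fell and for keratins that rose, since the 2 sets moved in opposite directions and the letters searched are those of LEF1 and of homeodomain factors such as LHX2, MSX2 and DLX3. Letters of FOXN1 and TRPS1 were not searched. They are from RefSeq on GRCm38.p6, 5′ to 3′ on the strand of the gene, for genes with 1 start in the table and no annotated exon in the stretch. Of the 9 genes, 6 were in the table, and *Edar*, *Edaradd* and *Foxn1* met this. Of the inner root sheath keratins that rose, *Krt25*, *Krt27*, *Krt28* and *Krt73* met it, and all of these but *Krt27* are shown. Capitals mark matches on either strand to CTTTGNT, the letters bound by TCF and LEF factors, or to TAATTA, a core bound by many homeodomain factors.
Edar (chr10:58675697-58675946, minus strand): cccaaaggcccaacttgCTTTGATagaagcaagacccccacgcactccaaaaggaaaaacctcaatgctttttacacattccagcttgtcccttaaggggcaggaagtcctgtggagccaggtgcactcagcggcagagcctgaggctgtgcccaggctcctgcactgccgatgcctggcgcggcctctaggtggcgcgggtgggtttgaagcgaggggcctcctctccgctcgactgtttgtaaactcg
Edaradd (chr13:12520451-12520700, minus strand): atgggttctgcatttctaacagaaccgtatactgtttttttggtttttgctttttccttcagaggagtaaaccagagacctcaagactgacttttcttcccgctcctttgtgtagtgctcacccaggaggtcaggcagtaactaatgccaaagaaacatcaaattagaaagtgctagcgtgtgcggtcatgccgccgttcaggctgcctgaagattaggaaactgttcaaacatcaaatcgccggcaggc
Foxn1 (chr11:78386609-78386858, minus strand): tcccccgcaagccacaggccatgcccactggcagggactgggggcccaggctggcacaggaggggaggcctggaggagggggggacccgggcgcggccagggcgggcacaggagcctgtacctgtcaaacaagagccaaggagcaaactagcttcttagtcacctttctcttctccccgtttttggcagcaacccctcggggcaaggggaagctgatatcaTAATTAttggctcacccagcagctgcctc
Krt25 (chr11:99322952-99323201, minus strand): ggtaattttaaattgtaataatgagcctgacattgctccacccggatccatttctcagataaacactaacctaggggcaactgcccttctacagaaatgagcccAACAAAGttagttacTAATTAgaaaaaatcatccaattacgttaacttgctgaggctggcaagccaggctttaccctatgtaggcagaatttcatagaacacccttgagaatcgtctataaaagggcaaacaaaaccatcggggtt
Krt28 (chr11:99374904-99375153, minus strand): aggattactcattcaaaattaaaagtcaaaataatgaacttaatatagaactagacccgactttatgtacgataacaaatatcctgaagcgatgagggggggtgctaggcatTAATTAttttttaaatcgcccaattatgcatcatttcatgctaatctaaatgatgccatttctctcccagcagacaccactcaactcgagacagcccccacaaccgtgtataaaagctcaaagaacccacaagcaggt
Krt73 (chr15:101802361-101802610, minus strand): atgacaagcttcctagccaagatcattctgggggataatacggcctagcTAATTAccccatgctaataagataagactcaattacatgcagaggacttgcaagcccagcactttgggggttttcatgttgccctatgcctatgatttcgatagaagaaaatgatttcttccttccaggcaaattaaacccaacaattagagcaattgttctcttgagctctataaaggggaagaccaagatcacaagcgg
The letters CTTTGNT were found once before *Edar* and once, on the other strand, before *Krt25*, and in 15.98% of 32851 such stretches of all genes in the table. The letters TAATTA were found once before *Foxn1*, *Krt25*, *Krt28* and *Krt73*, and in 4.84% of the stretches. *Edaradd* and *Krt27*, which is not shown, held neither, and no match overlapped another. A match describes the letters only, and no binding was measured here.

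**Figure D5:**
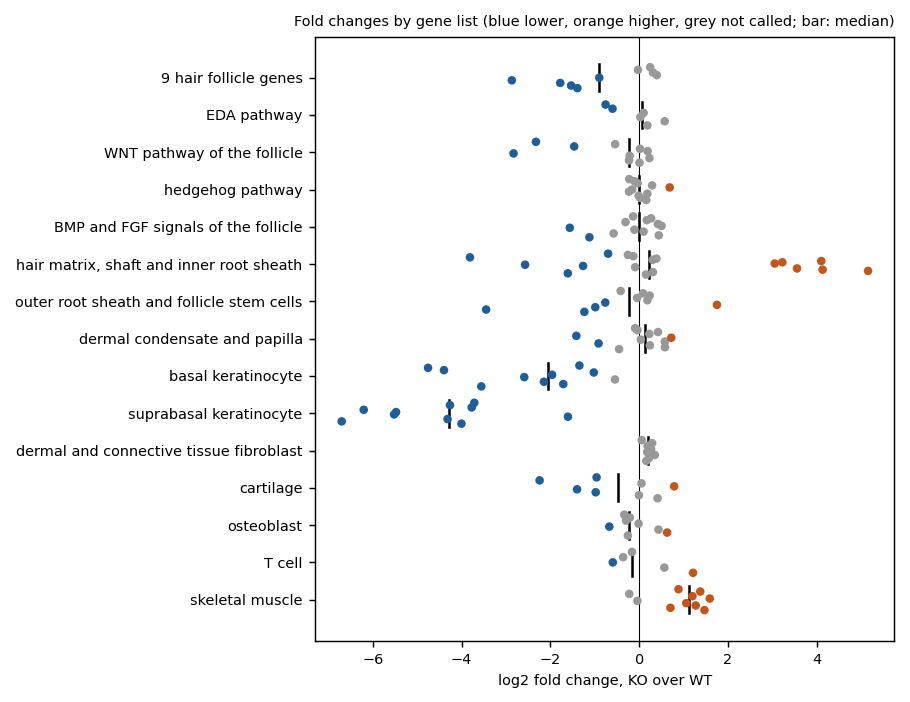
Log2 fold change, KO over WT (horizontal axis), of the tested genes of each list, 1 point per gene, blue where called lower, orange where called higher and grey where not called, with a black bar at the median. The 9 hair follicle genes spread from -2.87 to 0.40, the keratinocyte lists lie to the left, and the skeletal muscle list lies to the right with 8 of 10 genes called higher.

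For each of the 9 genes, the other gene with the most alike pattern was found by Pearson's r of log2 CPM over the 6 samples, among 15872 genes of at least 1 CPM, as a description. For *Foxn1* it was *Lbhd1* (r 0.9999), for *Edar* it was *Lce3c*, a gene of the cornified envelope (0.9997), and for *Edaradd* it was *Tubb3* (0.9992). For *Dlx3* it was *Coro1c* (0.9997), for *Lef1* it was *Acap3* (0.9997) and for *Msx2* it was *Col6a3*, a collagen gene (0.9985). For *Trps1* it was *Gm4518* (0.9945), for *Lhx2* it was *Ncapd3* (0.9933) and for *Shh* it was *Slc35d3* (0.9705). The genes that fell have a step between genotypes that many genes share, with 3236 to 3522 genes at r over 0.9 for each of them, against 27 for *Shh*, 209 for *Lhx2*, 316 for *Trps1* and 1418 for *Msx2*.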

How the data were processed

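RNA-seq of fetal leg muscle was used, from 3 WT and 3 KO samples grouped by the genotype in the labels. The authors trimmed reads with Trim Galore 0.6.6, mapped them to mm10 with HISAT2 2.2.1 and counted them with featureCounts 2.0.1. The authors deposited whole-number counts for each gene without normalization, both in files of single samples and in 1 joint table, and 0 values differed between these. The annotation and strand setting of the counting are not given in the sources used here. The authors' own comparisons were not used. Symbols, positions and exon lengths came from GENCODE M21, and upstream stretches from RefSeq.

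Counts were analysed with edgeR 4.0.16 in R 4.3.3 (filterByExpr, TMM, quasi-likelihood F-test on genotype alone, Benjamini-Hochberg adjustment over 22071 genes). A call needed an adjusted p below 0.05 together with a fold change above 1.5. DESeq2 1.42.0 and limma-voom (limma 3.58.1) were alternatives, as were other scaling, filters and fold thresholds, a replicate block and leaving out each sample. CPM uses TMM-scaled library sizes. The tests were checked on simulated data. Genes named beside the 9 were, per follicle list, up to 4 called genes with the largest log2 fold change at 0.5 CPM or more and no overlap, the 2 most abundant genes of each cell type list, and the most alike gene; any other gene given with values was chosen after its values were seen. The 9 genes and the lists were chosen with earlier results of these data known.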

Additional observations from a re-analysis of the deposited data

How the results depend on the processing

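The 9 genes kept 5 lower calls under every alternative except a fold change over 2, which left 4 because *Lef1* was under it, and 0 higher calls except with no fold threshold, which gave 3. Of 126 refitted fold changes of the 9 genes, 122 kept their direction and side of the threshold, and the other 4 were of *Shh*, whose log2 fold change was 0.0427 with upper-quartile factors and ran from -0.1721 to 0.0647 when 1 sample was left out. Of the follicle lists, 4 genes were called higher with at least 10 counts in every sample, since *Krt25*, *Krt27*, *Krt35*, *Krt71* and *Krt73* had fewer in a WT sample, and 28 with no fold threshold. Leaving out 1 sample gave 17 to 20 follicle genes lower and 10 to 12 higher. Over all genes, 774 were higher at a fold change over 2, and 5098 were lower and 4838 higher with no fold threshold. Leaving out 1 sample gave 1691 to 1924 lower and 1660 to 1953 higher. Same-numbered WT and KO samples deviated from their group means with correlations of -0.20, -0.13 and 0.05, so the numbers were not taken to pair the samples. With the replicate block 5 of the 9 genes were lower and 0 higher, and 1777 of all genes were lower and 1744 higher. The ratio to basal markers was apart between genotypes in 9 genes without any 1 sample, and in 8 to 9 with other reference markers, but it was apart in most genes of the table, so this count says little about the 9.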
